A study of Homo sapiens with 27 samples.

Results

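The comparison described here is that of TADA2B knockout cells with control cells, both kept in the MEK inhibitor trametinib. Its members are the 9 libraries, of 27 in the series, that the titles and the genotype and treatment labels place under 20 nM trametinib for 24 h: 3 of control cells, whose guide RNA targets GFP, a gene the human genome lacks, 3 of knockout cells made with guide 1 and 3 of knockout cells made with guide 2. All are A375, an established human melanoma line that carries an activating mutation of the kinase BRAF, and RNA was sequenced from polyA libraries. The knockout effect is the average of guide 1 and guide 2 less the control. The other 18 libraries hold the same 3 populations in DMSO, the solvent, or in 1 µM vemurafenib, an inhibitor of mutant BRAF, for the same time, and serve here only to ask where the effect under trametinib differed. The labels do not say whether a knockout population is a clone or a pool, nor whether replicate libraries are of separate cultures. All p-values therefore measure library-to-library spread, which can be purely technical.

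TADA2B is an adaptor of the acetyltransferase module of SAGA, a coactivator that acetylates histone H3 at promoters and also carries a deubiquitinase module. The related adaptor TADA2A belongs to ATAC, another complex built around the same acetyltransferases. MEK passes the signal of BRAF on to ERK, and its inhibition in melanoma cells shuts off ERK target genes while melanocyte differentiation genes are commonly induced. Melanoma cells can move between melanocytic, neural crest-like and undifferentiated states, which are told apart by factors such as MITF and SOX10 and by receptors such as NGFR, AXL and EGFR.

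The 9 libraries held between 67502300 and 92513726 counts, with a median of 80944606. On a principal component analysis of them, component 1 took 61.7% of the variance, with control libraries near -80.3, guide 1 between 24.3 and 27.5 and guide 2 between 54.0 and 54.7. Mitochondrially encoded genes took 2.05% to 2.38% of the counts in control libraries, 3.13% to 3.52% with guide 1 and 3.29% to 3.58% with guide 2. Their part in other results was not tested. With these genes left out, an alternative added after the data were seen, 6800 genes were called higher and 7251 lower, against 6817 and 7257 with them. Few genes were removed, so these totals could hardly move and do not address what the share reflects. Levels are in CPM, the standard depth-normalised read count, computed on TMM-scaled library totals. TADA2B itself (ENSG00000173011, chr4:7041899-7057952, plus strand, hg38) stood at 40.5, 40.7 and 42.8 CPM in the control libraries, 34.2, 35.7 and 34.8 CPM with guide 1 and 28.8, 29.4 and 29.8 CPM with guide 2. Its transcript was lower in each knockout library than in any control library (log2 -0.37 ± 0.036, the error being the standard error, adjusted p = 1.17e-12), yet most of it was present, and since an edited gene can keep its transcript this does not check the genotype labels. SOX10 and MITF, defining factors of the melanocyte lineage, were detected in each of the 9 libraries, and TYR, the tyrosinase, was nearly absent.

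Under trametinib, knockout cells held more transcript of most epithelial junction, growth factor and interferon-response genes examined than control cells. The proteases MMP1, MMP3, MMP12 and MMP13 were also higher, in a list of metalloproteinases and inhibitors that was split by member. Knockout cells held less of most neural crest-like genes, of the pigment enzyme DCT and of 10 of 16 AP-1 factors. Of 25199 genes tested with edgeR's quasi-likelihood test, 14074 passed at a Benjamini-Hochberg adjusted p under 0.05, which is 55.9%. The calls were split between 6817 higher (27.1%) and 7257 lower (28.8%) genes. At least 2-fold changes were less even, with 2122 genes higher (8.42%) and 1199 lower (4.76%). Genes at low level made up most of both. Among the 14105 genes that average at least 1 log2-CPM over the 9 libraries, 602 were at least 2-fold higher and 415 lower. These shares are the background for each count of list members below, with the median over all genes tested at a log2 of -0.02. All 6 knockout libraries lay above all 3 control libraries for 5568 genes (22.1%) and below them for 6014 (23.9%). Such separation in a single gene was thus common. In bulk RNA, fewer cells of a kind and less transcript per cell cannot be told apart.

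The 15 largest rises among called protein-coding genes of at least that mean level, with each knockout library above each control library, started from control means between 0.200 and 3.49 CPM and reached up to 48.4-fold. They were taken for their size, so their size is a description. The mean level is that over all 9 trametinib libraries, so a gene near absent from control libraries could pass through the knockout libraries alone. COL17A1 (ENSG00000065618, chr10:104031286-104085957, minus strand), a collagen of hemidesmosomes, the junctions that tie epithelial cells to their basement membrane, stood at 0.416, 0.277 and 0.353 CPM in the control libraries, 16.2, 16.6 and 16.3 CPM with guide 1 and 18.8, 17.1 and 16.7 CPM with guide 2. It was near absent from control libraries and similar with both guides, and the rise was 48.4-fold (log2 5.597 ± 0.12, adjusted p = 1.07e-37). SFN, the epithelial 14-3-3 protein sigma, stood at 0.734, 0.795 and 0.720 CPM in the control libraries, 8.17, 8.54 and 8.29 CPM with guide 1 and 13.6, 14.8 and 13.0 CPM with guide 2. No knockout library came near the control range, guide 2 was the higher of the guides, and the rise was 14.3-fold (log2 3.84 ± 0.095).

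**Figure D1:**
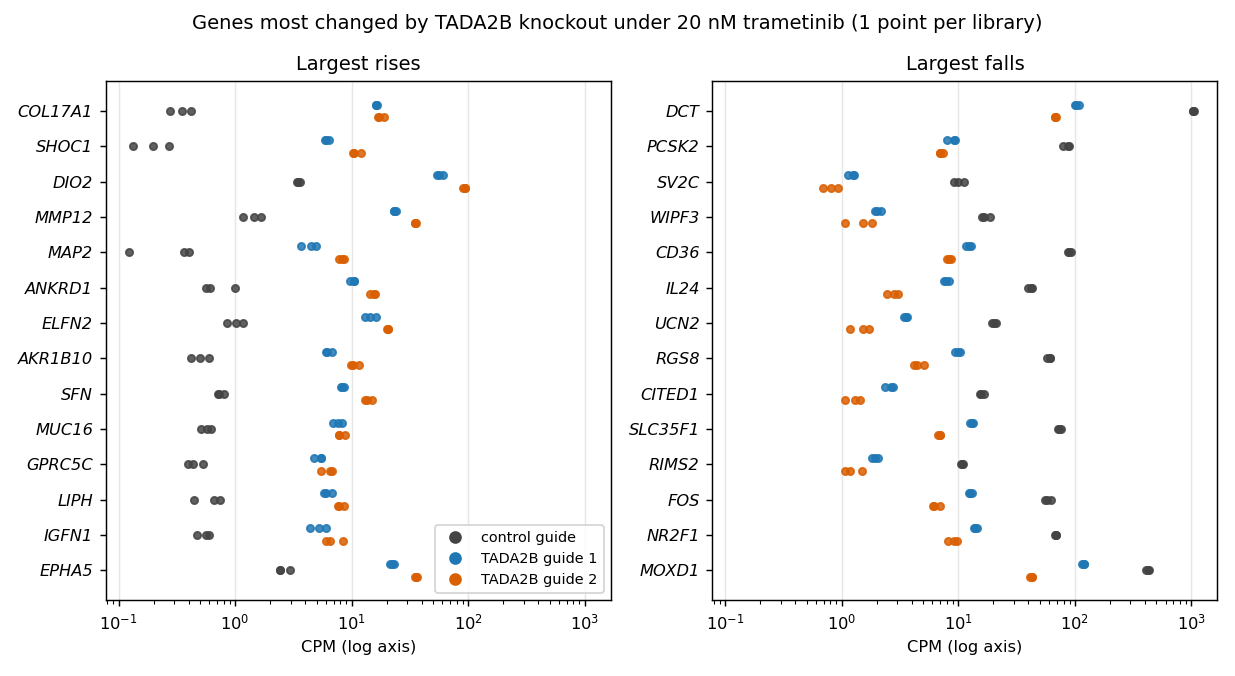
Level in CPM (log axis) of the genes with the largest rises and falls, with 1 point for each of the 9 trametinib libraries, coloured by control guide, guide 1 and guide 2. GOLGA8S and 1 of the rises are left out. For each gene drawn the points of both guides lie on 1 side of the control points, because the genes were chosen by that rule.

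Enzymes and secreted proteins followed. MMP12, a metalloproteinase that degrades elastin, stood at 1.46, 1.67 and 1.17 CPM in the control libraries, 23.3, 23.8 and 23.1 CPM with guide 1 and 35.0, 35.0 and 35.3 CPM with guide 2, with guide 2 above guide 1 and both far above control, a rise of 19.9-fold (log2 4.31 ± 0.081). DIO2, the deiodinase that activates thyroid hormone, had the same order of groups at 3.59, 3.44 and 3.42 CPM in the control libraries, 53.8, 55.8 and 60.8 CPM with guide 1 and 93.4, 93.2 and 90.1 CPM with guide 2, and rose 20.7-fold (log2 4.37 ± 0.060). AKR1B10, an aldo-keto reductase, rose 16.1-fold, LIPH, a phospholipase, 11.4-fold and the membrane mucin MUC16 13.8-fold. Among proteins better known from neurons, the microtubule-binding MAP2 went from 0.403, 0.361 and 0.122 CPM in control libraries to 4.90, 3.67 and 4.51 with guide 1 and 8.58, 7.80 and 8.30 with guide 2, a 19.7-fold rise. One control library sat well below the other two, and guide 2 again exceeded guide 1. The ephrin receptor EPHA5 rose 10.7-fold and ELFN2, a leucine-rich repeat membrane protein, 17.0-fold. SHOC1, a meiotic recombination protein, rose 41.1-fold, from 47 reads in the control libraries together to 1682 with guide 1 and 2570 with guide 2. ANKRD1, a nuclear ankyrin repeat protein and known YAP target, stood at 0.611, 0.566 and 1.00 CPM in the control libraries, 9.65, 10.5 and 10.4 CPM with guide 1 and 14.5, 15.5 and 15.8 CPM with guide 2, a 17.3-fold rise. The orphan receptor GPRC5C and the muscle protein IGFN1 rose 12.6-fold and 10.9-fold.

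The 15 largest falls under the same rule went from 5.96-fold to 12.5-fold, from control means between 8.74 and 1047 CPM. A large fall passes the rule on mean level only from a raised control level. The contrast with the rises in control level and fold thus follows in part from the choice. DCT (ENSG00000080166, chr13:94436808-94479682, minus strand), the dopachrome tautomerase of pigment synthesis, led them at 1042, 1036 and 1063 CPM in the control libraries, 108, 102 and 99.8 CPM with guide 1 and 67.9, 68.0 and 68.3 CPM with guide 2. No knockout library held more than a small share of the control level, guide 2 was the lower of the guides, and the fall was 12.5-fold (log2 -3.64 ± 0.027, adjusted p = 2.31e-56). CITED1, a coactivator tied to the pigment programme, fell 8.73-fold, from 15.4, 15.8 and 16.5 CPM to 2.37, 2.75 and 2.66 with guide 1 and 1.31, 1.07 and 1.43 with guide 2. PCSK2, a prohormone convertase, stood at 88.2, 78.4 and 87.9 CPM in the control libraries, 9.45, 9.10 and 7.93 CPM with guide 1 and 7.40, 6.96 and 7.01 CPM with guide 2, and the 2 guides lay side by side well under control (log2 -3.42 ± 0.067). CD36, the fatty acid transporter, stood at 89.7, 92.8 and 87.7 CPM in the control libraries, 12.3, 11.6 and 12.9 CPM with guide 1 and 8.25, 8.59 and 7.92 CPM with guide 2 and fell 8.96-fold, with guide 2 somewhat under guide 1.

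Genes of secretion and signalling filled most of the remaining places. The cytokine IL24 fell to 8.25, 7.58 and 7.91 CPM with guide 1 and further, to 3.03, 2.81 and 2.45 CPM, with guide 2, from 43.2, 40.0 and 42.2 CPM in control libraries, an 8.96-fold fall over both guides. The peptide hormone UCN2 fell 8.95-fold and RGS8, which shortens G protein signals, 8.92-fold. SV2C and RIMS2, proteins of secretory vesicles and their release sites, fell 10.2-fold and 6.95-fold, WIPF3, an actin regulator, 9.91-fold and the transporter-like SLC35F1 7.82-fold. FOS, a subunit of AP-1, stood at 58.0, 55.9 and 62.2 CPM in the control libraries, 12.6, 13.1 and 12.4 CPM with guide 1 and 6.07, 6.90 and 6.22 CPM with guide 2, in 3 separate levels that did not overlap, and fell 6.50-fold. The nuclear receptor NR2F1, active in the neural crest, fell 6.10-fold and MOXD1, a monooxygenase expressed in neural crest, 5.96-fold, from 421, 410.5 and 434 CPM to 119, 114 and 120.1 with guide 1 and 41.4, 42.9 and 43.0 with guide 2. GOLGA8S (log2 -2.65) has close copies in the genome that may share its reads, which makes its value uncertain.

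Promoter sequences of these genes are printed for the 2 largest rises and the 2 largest falls whose RefSeq start lay within 1000 bases of the start in the annotation used. Each is the 250 bases before the RefSeq start on GRCh38.p14, 5′ to 3′ on the gene's own strand, and capitals mark matches on either strand to TATAAA (the TATA box), TGANTCA (the AP-1 site) or CANNTG (the E-box, which includes CACGTG and CATGTG).
COL17A1 (chr10:104085881-104086130, minus strand): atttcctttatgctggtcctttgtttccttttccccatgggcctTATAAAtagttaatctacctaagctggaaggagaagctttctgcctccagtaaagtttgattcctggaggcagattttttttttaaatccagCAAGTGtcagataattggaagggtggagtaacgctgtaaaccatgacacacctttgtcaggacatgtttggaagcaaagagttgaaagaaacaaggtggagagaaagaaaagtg
SHOC1 (chr9:111794938-111795187, minus strand): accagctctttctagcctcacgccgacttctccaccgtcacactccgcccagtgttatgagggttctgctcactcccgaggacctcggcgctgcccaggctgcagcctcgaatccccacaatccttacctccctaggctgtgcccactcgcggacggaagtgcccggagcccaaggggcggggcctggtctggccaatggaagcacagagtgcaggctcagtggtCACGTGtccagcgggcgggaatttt
PCSK2 (chr20:17225857-17226106, plus strand): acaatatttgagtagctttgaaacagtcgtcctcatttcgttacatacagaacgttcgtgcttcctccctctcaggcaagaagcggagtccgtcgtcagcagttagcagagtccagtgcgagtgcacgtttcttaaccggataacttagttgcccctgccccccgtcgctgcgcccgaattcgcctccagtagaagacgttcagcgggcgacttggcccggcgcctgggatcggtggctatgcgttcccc
SV2C (chr5:76083133-76083382, plus strand): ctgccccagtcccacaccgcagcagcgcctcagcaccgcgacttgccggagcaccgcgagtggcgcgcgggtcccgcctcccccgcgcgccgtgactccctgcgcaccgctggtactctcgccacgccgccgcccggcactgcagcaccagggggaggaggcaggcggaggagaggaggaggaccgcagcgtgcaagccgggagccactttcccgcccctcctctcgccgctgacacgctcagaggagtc
The COL17A1 window held 1 TATAAA and 1 CANNTG, the SHOC1 window 1 CACGTG, and the windows of PCSK2 and SV2C none of the 5 motifs, which says only that these letters are not there. RefSeq windows from 250 bases before to 50 after the start were matched to genes by symbol. Windows were found for 12588 of 15826 protein-coding genes tested, for 1056 of 1441 at least 2-fold higher and for 489 of 656 lower. Genes without a window do not enter the shares given here. TATAAA was found in 12.9% of the windows of higher genes and in 12.5% of those of lower genes. Its share was 6.99% over the genes tested that have a window and 12% over all 27305 windows. TGANTCA was found in 9.47% and 9.41% of the same 2 sets, 5.27% of the genes tested and 7.76% of all windows. CANNTG stood in 72% and 67.5% of the 2 sets, 62% of the genes tested and 68.9% of all windows. For CACGTG the shares were 7.01%, 6.75%, 9.56% and 7.43%, and for CATGTG 8.9%, 13.3%, 7.38% and 11.2%. TATAAA and TGANTCA thus stood at like shares in the genes that rose and those that fell, both above the share of the genes tested; these are descriptions without a test.

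Lists of genes with a shared role were counted next. Keratinocyte and epithelial junction genes were raised in most cases: of 36 members tested, 29 were higher and 3 lower, 21 of them at least 2-fold higher, with a median log2 of 1.43 (1.24 with guide 1 and 1.57 with guide 2). After COL17A1 and SFN, the largest rises were those of the simple-epithelium keratins KRT19 (9.67-fold, from 31 reads in the control libraries together) and KRT7 (8.98-fold) and of the desmosomal plakophilin PKP2, which stood at 0.978, 0.855 and 0.502 CPM in the control libraries, 5.91, 6.30 and 6.34 CPM with guide 1 and 9.06, 9.32 and 9.66 CPM with guide 2 (9.66-fold). PKP2 was low in the control libraries and higher with guide 2 than with guide 1. The lower members included the integrin subunit ITGA6 and the hemidesmosome linker DST, named after their values were seen. Summed over the tested members, the list stood at 1404 to 1463 CPM in control libraries, 2020 to 2108 with guide 1 and 2179 to 2198 with guide 2. Its defining regulators were low: TP63 did not pass the test, and GRHL2 and OVOL1 had 38 and 29 reads over the 9 libraries and were not tested.

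Proteases that act outside the cell split by member. Of 25 metalloproteinases and their inhibitors, 13 were higher and 7 lower (median log2 0.25). By at least 2-fold, 7 were higher and 5 lower. Their summed level stood at 1742 to 1822 CPM in control libraries, 1800 to 1870 with guide 1 and 1565 to 1601 with guide 2. MMP3, which activates other metalloproteinases, went from 0.122, 0.193 and 0.122 CPM in control libraries to 3.79, 4.62 and 4.58 CPM with guide 1 and 5.83, 7.57 and 6.12 CPM with guide 2 (35.8-fold), and the interstitial collagenase MMP1 from 0.0978, 0.133 and 0.0679 CPM to 2.82, 3.23 and 2.33 CPM with guide 1 and 4.32, 4.26 and 4.57 CPM with guide 2 (34.3-fold). Both were close to absent in control libraries, with 35 reads for MMP3 and 24 for MMP1 over the 3, and highest with guide 2. MMP13, another collagenase, rose 18.2-fold, from 25 reads to 424 and 576. PLAU (ENSG00000122861, chr10:73909177-73917497, plus strand), the urokinase that activates plasminogen, had 4 reads in the 3 control libraries together, 289 with guide 1 and 400 with guide 2, so that its fitted 72.8-fold rise rests on a near-empty control group. Of 14 genes around urokinase and plasminogen 8 were higher and 4 lower (median log2 0.21); the plasmin inhibitor SERPINF2 rose 4.19-fold. Of 35 collagen genes 11 were higher and 17 lower. COL11A1, a fibrillar collagen, fell 17.3-fold, from 9.83, 10.0 and 9.02 CPM to under 1 CPM in each knockout library, and COL8A1 fell 4.67-fold, while COL1A1, a chain of type I collagen, rose 3.17-fold. Other matrix proteins and matrix receptors had 15 higher and 23 lower members of 44.

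**Figure D2:**
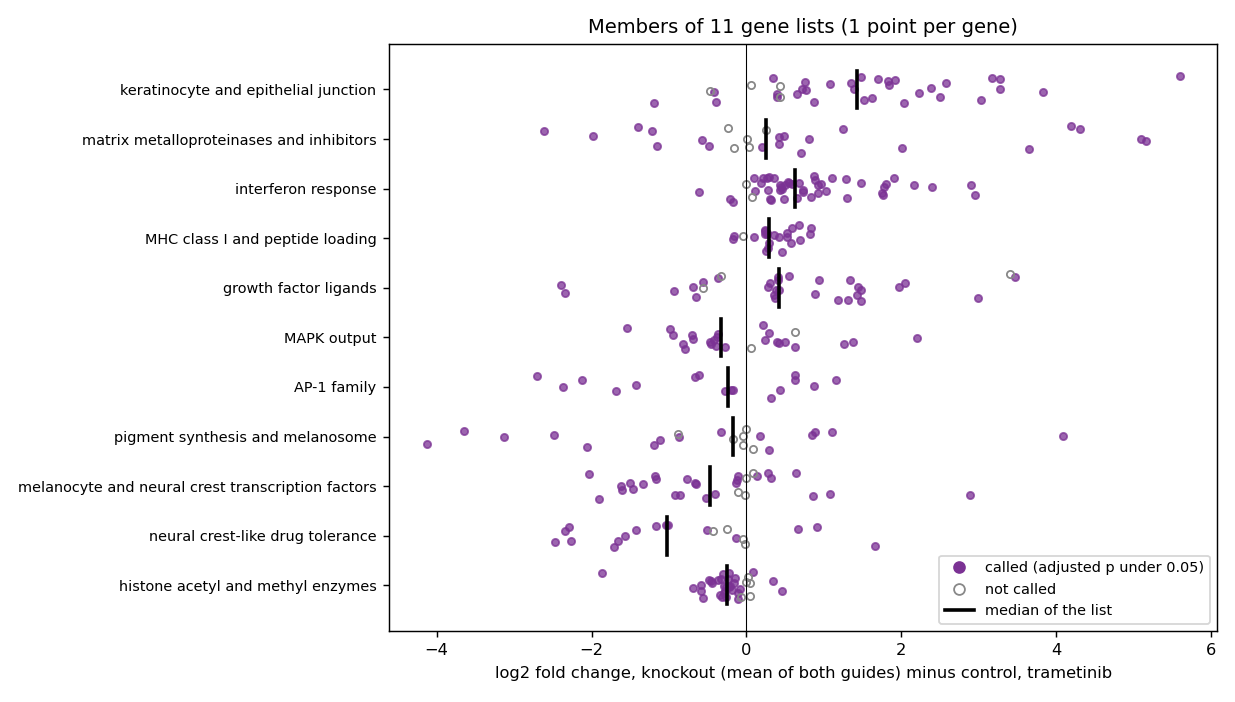
Log2 fold change of knockout (mean of both guides) against control under trametinib for the tested members of 11 gene lists, with 1 point per gene, filled where the adjusted p was under 0.05 and open where not. Vertical bars are list medians, from 1.43 for keratinocyte and epithelial junction genes to -1.03 for neural crest-like genes.

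Growth factor ligands were more often higher than lower, with 22 higher and 7 lower of 32 tested (median log2 0.42). The ErbB ligand NRG4 rose 7.93-fold and the lymphatic growth factor VEGFC 4.13-fold, the latter from 6.01, 5.79 and 5.66 CPM to 19.2, 18.0 and 21.2 with guide 1 and 30.1, 29.6 and 29.9 with guide 2. The EGFR ligand AREG rose from 8 reads in the control libraries together to 95 and 102. FGF5, a fibroblast growth factor, fell 5.26-fold and GDNF, the ligand of the RET coreceptor, 5.05-fold. GDNF stood at 79.8, 80.6 and 80.5 CPM in the control libraries, 22.5, 23.7 and 22.9 CPM with guide 1 and 10.6, 12.0 and 10.2 CPM with guide 2, in 3 levels without overlap. Of 38 receptor tyrosine kinases, 14 were higher and 16 lower (median log2 0.01). EGFR, which is known to return signal to the MAPK cascade under BRAF or MEK inhibition, stood at 3.28, 3.44 and 3.46 CPM in the control libraries, 14.5, 15.7 and 15.6 CPM with guide 1 and 21.8, 22.2 and 20.3 CPM with guide 2. Each knockout library exceeded each control library, guide 2 stood above guide 1, and the rise was 5.33-fold (log2 2.41 ± 0.060, adjusted p = 5.92e-35). AXL, a receptor of undifferentiated melanoma, was lower in both populations by less (194, 189 and 196 CPM in the control libraries, 149, 157 and 160.4 CPM with guide 1 and 174, 176 and 174 CPM with guide 2, log2 -0.23 ± 0.026). KIT, the stem cell factor receptor of melanocytes, rose from 12 reads in the control libraries to 185 and 177 with the guides, whereas ERBB4 fell 9.54-fold and the VEGF receptor KDR 4.73-fold.

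Interferon-response genes were higher in 43 and lower in 3 of 48 members (median log2 0.63, with 0.57 for guide 1 and 0.65 for guide 2). BST2, which tethers viruses at the cell surface, stood at 2.77, 3.06 and 2.63 CPM in the control libraries, 13.2, 13.7 and 15.0 CPM with guide 1 and 15.6, 15.5 and 17.0 CPM with guide 2, a rise of 5.29-fold (log2 2.40 ± 0.085). The guides lay close together and far from control. IFI27 and XAF1, both induced by interferon and linked to apoptosis, rose 7.49-fold and 7.75-fold from under 1 CPM. MHC class I and peptide loading genes were higher in 20 and lower in 2 of 23 members (median log2 0.29), none of them by 2-fold. NLRC5, the transactivator of these genes, rose most of them, 1.77-fold, from 22.9, 24.2 and 25.4 CPM to 42.3, 40.9 and 42.9 CPM with guide 1 and 44.2, 43.3 and 43.7 CPM with guide 2. HLA-B stood at 140.1, 138 and 150.0 CPM in the control libraries, 263, 277 and 275 CPM with guide 1 and 186, 201 and 204 CPM with guide 2, with guide 1 above guide 2 and both above control; HLA genes resemble each other and their reads may be split between them. MHC class II genes went the other way on balance, with 3 higher and 10 lower of 15, but the guides differed: with guide 1 alone 7 were higher and 3 lower (median log2 0.10), against a median of -0.54 with guide 2. CIITA, the class II transactivator, stood at 98.9, 94.0 and 99.97 CPM in the control libraries, 83.9, 87.2 and 81.1 CPM with guide 1 and 47.8, 43.1 and 45.3 CPM with guide 2, with guide 1 somewhat under control and guide 2 well below both. Among 32 inflammatory cytokines and NF-kB genes 16 were higher and 9 lower; IL1B, interleukin 1 beta, rose 11.3-fold, from 46 reads to 449 and 697, and TNFRSF9, a TNF receptor family member, 6.03-fold.

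**Figure D3:**
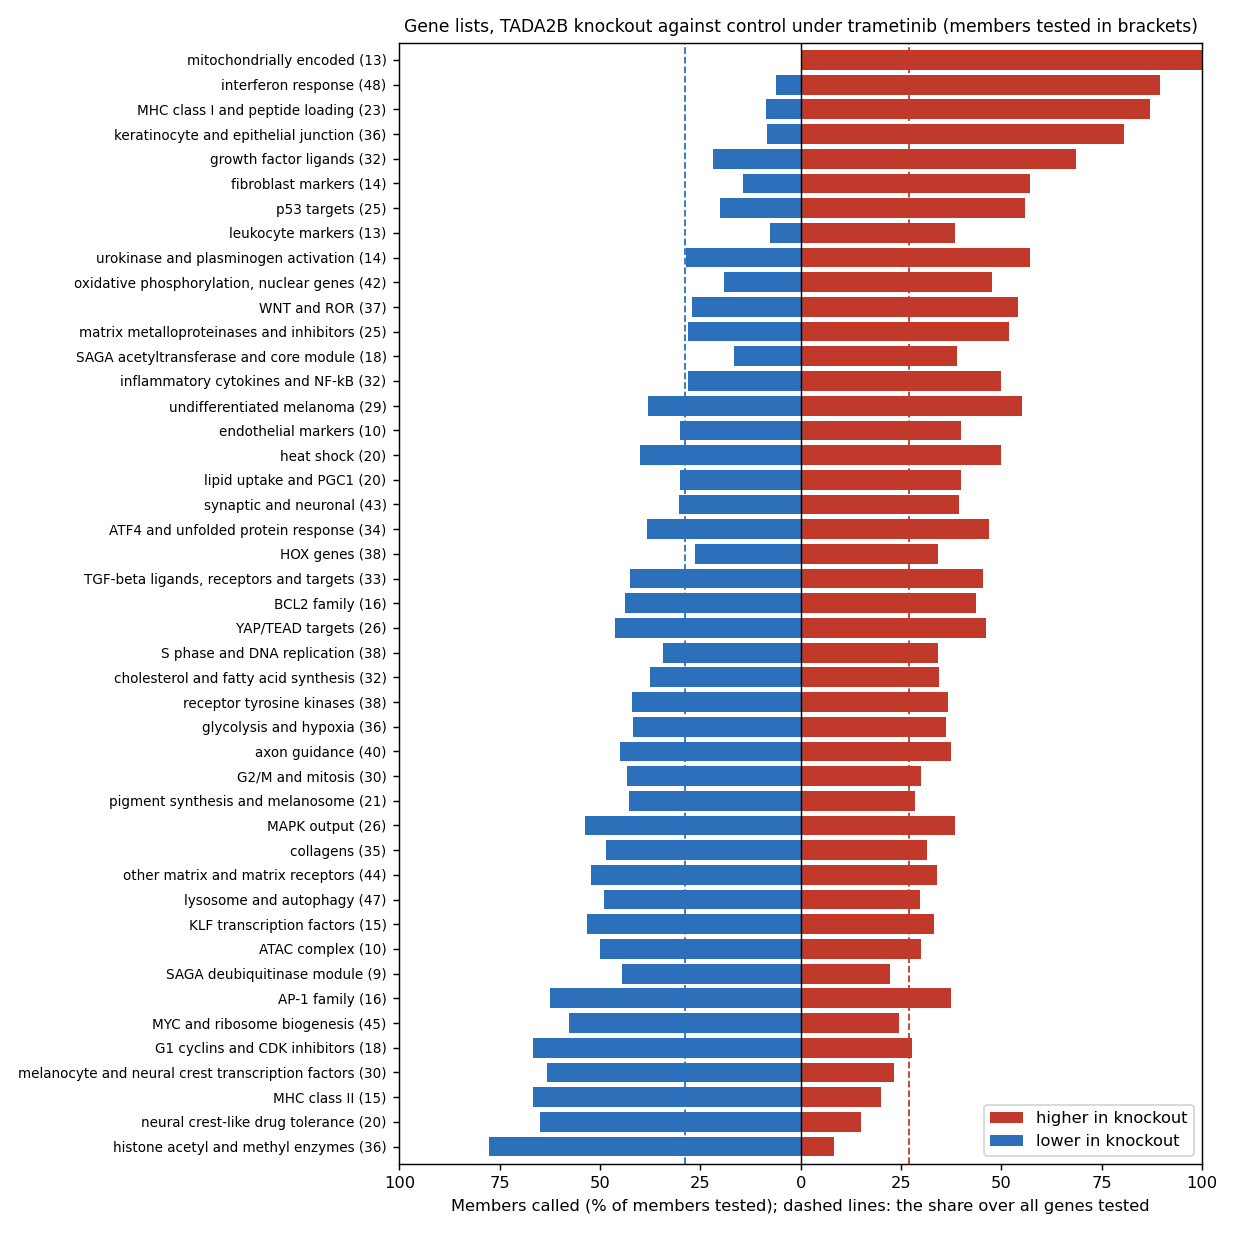
Percent of the tested members of each gene list that were higher (right) or lower (left) in TADA2B knockout cells under trametinib at an adjusted p under 0.05, with the number tested in brackets. Dashed lines give the share over all genes tested, 27.1% higher and 28.8% lower; interferon-response genes reach 89.6% higher and histone acetyl and methyl enzymes 77.8% lower.

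Markers of the neural crest-like state had the lowest median of the lists counted: of 20 members 13 were lower and 3 higher, with a median log2 of -1.03 (-0.87 with guide 1 and -1.14 with guide 2). NGFR (ENSG00000064300, chr17:49495293-49515017, plus strand), the neurotrophin receptor that marks this state, stood at 175, 172 and 189.6 CPM in the control libraries, 52.0, 54.1 and 51.5 CPM with guide 1 and 24.1, 28.03 and 26.0 CPM with guide 2. The 3 groups held 3 separate levels, and the fall was 4.82-fold (log2 -2.27 ± 0.036, adjusted p = 2.03e-41). RXRG, a retinoid receptor of drug-tolerant neural crest-like cells, fell 4.89-fold, and PRIMA1, a membrane anchor of acetylcholinesterase, 5.56-fold.

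Transcription factors of melanocytes and neural crest were lower in 19 and higher in 7 of 30 (median log2 -0.47). SOX10 (ENSG00000100146, chr22:37970686-37987422, minus strand), a factor both lineages need, stood at 1050.0, 987 and 1099 CPM in the control libraries, 496, 524 and 511 CPM with guide 1 and 273, 288 and 282 CPM with guide 2 (log2 -1.47 ± 0.030), again in 3 separate levels. MITF, the master regulator of melanocytes, stood at 141, 144 and 136 CPM in the control libraries, 89.2, 89.8 and 88.9 CPM with guide 1 and 91.1, 89.8 and 87.1 CPM with guide 2 (log2 -0.65 ± 0.028), with the guides level with each other. ZEB2, which accompanies the melanocytic state, fell 3.74-fold and SOX11 4.08-fold. FOXD3, a neural crest factor, fell 3.06-fold and ETS1 3.07-fold. SOX9, often opposed to SOX10 in melanoma, rose 7.37-fold, from 0.795, 0.410 and 0.312 CPM to 2.63, 2.96 and 3.34 with guide 1 and 5.04, 4.65 and 4.66 with guide 2.

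Pigment and melanosome genes were mixed in number, with 6 higher and 9 lower of 21 (median log2 -0.18), and their summed level, DCT included, went from between 3094 and 3186 CPM in control libraries to between 1430 and 1486 with guide 1 and between 1146 and 1169 with guide 2. TYR had 32 reads in the control libraries together, 10 with guide 1 and 0 with guide 2. TRPM1, a melanocyte ion channel, fell from 102 reads to 22 and 17. ATP6V0D2, a proton pump subunit, went the other way from 2 reads to 48 and 38. In the undifferentiated list, 16 of 29 were higher and 11 lower (median log2 0.62). F2RL1, a protease-activated receptor, rose 5.00-fold and CCN1, a matricellular protein, 3.75-fold, from 7.74, 6.71 and 7.12 CPM to 22.6, 24.8 and 23.1 CPM with guide 1 and 32.6, 31.2 and 29.4 CPM with guide 2, whereas AXL and JUN of the same list fell.

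Outputs of the MAPK cascade, low in trametinib, were split at 10 higher and 14 lower of 26 (median log2 -0.32, with -0.07 for guide 1 and -0.36 for guide 2). Summed over the list, guide 1 stood at 624.5 to 632.1 CPM, just under the 643.1 to 655.7 of control libraries, and guide 2 far lower at 473.5 to 481.0. DUSP6 and SPRY4, which feed back on ERK and its receptors, were low in all 9 libraries. DUSP6 stood at 1.08, 0.952 and 1.13 CPM in the control libraries, 0.867, 0.777 and 0.777 CPM with guide 1 and 0.578, 0.870 and 0.702 CPM with guide 2 (log2 -0.46 ± 0.12), with guide 1 and guide 2 overlapping, and SPRY4 at 1.48, 1.83 and 1.62 CPM in the control libraries, 1.09, 0.992 and 1.24 CPM with guide 1 and 0.881, 0.639 and 0.831 CPM with guide 2 (log2 -0.82 ± 0.091). DUSP4 and DUSP5, related phosphatases, stood higher and fell: DUSP4 from 64.8, 66.7 and 65.9 CPM to 44.4, 44.9 and 46.8 CPM with guide 1 and 23.1, 25.1 and 24.5 CPM with guide 2, and DUSP5 by 2.91-fold. CCND1, the cyclin that ERK signalling induces, stood at 29.6, 27.5 and 28.9 CPM in the control libraries, 39.2, 37.1 and 38.7 CPM with guide 1 and 37.3, 36.5 and 37.6 CPM with guide 2 (log2 0.40 ± 0.032), higher in each knockout library. SPRY1 rose 4.58-fold, from 26 reads to 102 and 162, and the potassium channel KCNN4 2.59-fold. Of 16 AP-1 family members, 10 were lower and 6 higher (median log2 -0.23). JUN stood at 602, 595 and 637 CPM in the control libraries, 205, 211 and 207 CPM with guide 1 and 92.2, 96.2 and 95.6 CPM with guide 2, in 3 levels without overlap (log2 -2.12 ± 0.029, adjusted p = 1.35e-45). ATF3, induced by stress, stood at 156, 149.6 and 152 CPM in the control libraries, 41.4, 39.6 and 38.3 CPM with guide 1 and 21.8, 21.8 and 21.7 CPM with guide 2 (log2 -2.37 ± 0.037), and FOSL2 at 499, 489.7 and 509 CPM in the control libraries, 191, 198 and 205 CPM with guide 1 and 121, 123 and 122 CPM with guide 2 (log2 -1.68 ± 0.026). Both followed the order of JUN, with guide 2 lowest. Summed over the list, the level was 2040 to 2099 CPM in control libraries, 970.1 to 973.5 with guide 1 and 636.4 to 659.1 with guide 2. KLF9, a Krüppel-like factor, stood at 757, 723 and 722 CPM in the control libraries, 236, 231 and 225 CPM with guide 1 and 125, 126 and 124 CPM with guide 2, a 4.33-fold fall, whereas KLF4 rose 3.64-fold; of 15 such factors 5 were higher and 8 lower.

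The partners of TADA2B in SAGA and ATAC come next. Of 18 genes of SAGA's acetyltransferase and core modules 7 were higher and 3 lower, none by 2-fold, and TADA2B itself was 1 of the 3. The acetyltransferase KAT2A stood at 56.3, 52.9 and 58.2 CPM in the control libraries, 65.4, 68.6 and 71.1 CPM with guide 1 and 67.1, 71.3 and 72.6 CPM with guide 2 (log2 0.31 ± 0.038). Its paralogue KAT2B stood at 263, 249 and 254 CPM in the control libraries, 248, 241 and 233 CPM with guide 1 and 168, 162 and 160.4 CPM with guide 2 (log2 -0.37 ± 0.026), with guide 2 well below the other groups and guide 1 close to control. USP22, the deubiquitinase of SAGA, stood at 500.2, 486 and 511 CPM in the control libraries, 389, 401 and 389.7 CPM with guide 1 and 356, 359.8 and 358 CPM with guide 2 (log2 -0.41 ± 0.022), and its module had 2 higher and 4 lower genes of 9, USP51 by the most (2.06-fold lower, with 92 reads in the control libraries, 51 with guide 1 and 45 with guide 2). The calls for ENY2 and USP51 in that module, and for TAF10 in the core, were lost in 1 or more of the alternative settings tried. ATAC genes had 3 higher and 5 lower of 10; YEATS2, a reader of acylated histones, differed by a log2 of -0.44 ± 0.035. Of 36 histone acetyl and methyl enzymes 28 were lower and 3 higher (median log2 -0.25), HDAC9 by the most (3.65-fold, from 52.8, 52.9 and 49.7 CPM to 16.4, 15.7 and 15.6 CPM with guide 1 and 12.6, 13.1 and 12.2 CPM with guide 2), while the other 27 fell by less than 2-fold, among them the methyltransferase EZH2 (log2 -0.58) and the demethylase KDM5A (log2 -0.56).

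Cell cycle genes were divided. G2/M and mitosis genes had 9 higher and 13 lower of 30 (median log2 -0.08), none by 2-fold, and the guides differed, with medians of -0.20 for guide 1 and 0.05 for guide 2; with guide 1 alone 3 were higher, and with guide 2 alone 5 were lower. S phase and DNA replication genes had 13 higher and 13 lower of 38, with E2F2, an activator of S phase genes, 4.67-fold higher and cyclin CCNE2 2.12-fold lower. Of 18 G1 cyclins and CDK inhibitors 5 were higher and 12 lower, led by CDKN1C (30.7, 34.0 and 38.4 CPM in control libraries, 16.4, 17.7 and 18.2 with guide 1 and 7.97, 8.84 and 8.99 with guide 2). The BCL2 family had 7 higher and 7 lower of 16. PMAIP1 (NOXA), which promotes apoptosis, stood at 0.929, 0.771 and 1.24 CPM in the control libraries, 7.29, 5.90 and 6.36 CPM with guide 1 and 10.3, 10.0 and 9.96 CPM with guide 2, an 8.35-fold rise with guide 2 above guide 1. The survival factors BCL2A1 and BCL2 fell 3.80-fold and 2.83-fold, and so did HRK, a promoter of apoptosis, by 2.08-fold. BMF, another such promoter, fell 1.51-fold from 259, 253 and 262 CPM. Of 25 p53 targets 14 were higher and 5 lower, with FAS, a death receptor, 2.42-fold higher.

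Further signalling lists were divided. WNT and ROR genes had 20 higher and 10 lower of 37. LGR5, a receptor of R-spondins, rose 24.4-fold (18 reads in the control libraries together, 439 with guide 1 and 521 with guide 2) and WNT5B 6.86-fold, and SFRP2, a secreted WNT binder, had 0 reads in the control libraries, 15 with guide 1 and 22 with guide 2. TGF-beta genes had 15 higher and 14 lower of 33: INHBA, the activin subunit, stood at 20.1, 19.2 and 19.7 CPM in the control libraries, 67.0, 67.3 and 64.4 CPM with guide 1 and 85.5, 79.9 and 80.3 CPM with guide 2 (3.75-fold) and PMEPA1, a feedback inhibitor, at 189, 183 and 186 CPM in the control libraries, 69.5, 67.5 and 70.0 CPM with guide 1 and 35.6, 38.1 and 36.3 CPM with guide 2 (log2 -1.89 ± 0.027), so that INHBA rose and PMEPA1 fell with no library of either guide among the controls. YAP/TEAD targets had 12 higher and 12 lower of 26, with GADD45B, a stress sensor, 3.96-fold lower. Axon guidance genes had 15 higher and 18 lower of 40, and synaptic and neuronal genes 17 and 13 of 43, with the convertase PCSK1 7.38-fold higher (12.1, 12.0 and 12.2 CPM to 84.1, 88.5 and 85.1 CPM with guide 1 and 94.6, 90.3 and 93.5 CPM with guide 2) where its relative PCSK2 was lower. HOX genes had 13 higher and 10 lower of 38.

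In metabolism, the 13 mitochondrially encoded genes were higher without exception (median log2 0.43), as their share of the counts was. Nuclear genes of oxidative phosphorylation had 20 higher and 8 lower of 42, by less than 2-fold, COX7B by the most (log2 0.42). Genes of ribosome biogenesis and MYC targets were lower in 26 and higher in 11 of 45; SRM, spermidine synthase, stood at 331, 325 and 355 CPM in the control libraries, 159, 161 and 158 CPM with guide 1 and 82.4, 93.1 and 92.4 CPM with guide 2, a 2.82-fold fall in 3 separate levels, while ODC1, the enzyme just before it in polyamine synthesis, rose 2.50-fold. Cholesterol and fatty acid synthesis had 11 higher and 12 lower of 32, glycolysis and hypoxia 13 and 15 of 36, lipid uptake genes 8 and 6 of 20, lysosome and autophagy 14 and 23 of 47 and ATF4 and unfolded protein response genes 16 and 13 of 34. Hexokinase HK2 fell 2.27-fold, whereas carbonic anhydrase CA9 rose 4.99-fold from under 1 CPM. Heat shock genes had 10 higher and 8 lower of 20; HSPB8, a small heat shock protein, rose 4.34-fold and HSPA1A 2.44-fold, although reads of HSPA1A and its near-identical copy HSPA1B can be split.

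Markers of other cell types were counted in the same way, although some are expressed in this line: S100A4 and PDGFRB of the fibroblast list had 159472 and 37001 reads over the 9 libraries. Fibroblast markers had 8 higher and 2 lower of 14, with a summed level of 234.4 to 247.4 CPM in control libraries, 353.7 to 378.4 with guide 1 and 365.1 to 386.0 with guide 2; LUM, a matrix proteoglycan, rose 4.98-fold, and DPT had 2 reads over the 9 libraries. Leukocyte markers had 5 higher and 1 lower of 13 and summed to 13.1 to 14.2 CPM in control libraries, 22.8 to 24.4 with guide 1 and 21.5 to 22.4 with guide 2. CD79A, a subunit of the B cell receptor, rose 9.96-fold, from 32 reads in the control libraries to 334 with guide 1 and 350 with guide 2, the monocyte receptor CD14 3.48-fold, from 39 reads to 179 and 118, and lysozyme (LYZ) 2.81-fold, from 1147 reads to 4022 and 2933. MS4A1, a defining gene of B cells, had 1 read, TYROBP 4, CD3E 9 and AIF1 13 reads over the 9 libraries. Other members held more, with 1588 reads of CD4, 1337 of CSF1R, 550 of LCP1 and 436 of CD8A. PTPRC, the leukocyte common antigen, was lower in knockout cells (log2 -1.11). Endothelial markers had 4 higher and 3 lower of 10. They summed to 31.3 to 34.3 CPM in control libraries, 25.4 to 27.4 with guide 1 and 24.6 to 25.4 with guide 2. CDH5, the endothelial cadherin, rose 5.05-fold, from 33 reads in the control libraries to 167 with guide 1 and 190 with guide 2. KDR fell from 2644 reads to 809 and 440, and ESAM from 527 to 361 and 257. PLVAP had 1 read over the 9 libraries, while EGFL7 had 5809 and VWF 3865. The part of these marker genes in the results above was not tested.

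The difference between the knockout effect under trametinib and that in DMSO asks which of these changes depended on the drug. The 2 effects share no library. Of 25199 genes, 5231 had a higher effect under trametinib (20.8%) and 5835 a lower one (23.2%), and the difference was at least 2-fold for 989 (3.92%) and 1274 (5.06%). Among the lists, all 30 G2/M genes had a higher effect under trametinib (median -0.08, against -0.49 in DMSO), and so did 34 of 38 S phase genes (median in DMSO -0.69) and 37 of 45 ribosome biogenesis genes (median in DMSO -0.41). Interferon-response genes had a lower effect in 33 and a higher one in 3 of 48, the median being 0.63 under trametinib and 1.06 in DMSO. Pigment genes had a lower effect in 14 and a higher one in 0 of 21, their median in DMSO being 0.38. Lysosome and autophagy genes had a lower effect in 33 and a higher one in 2 of 47. Keratinocyte and epithelial junction genes had a higher effect in 21 and a lower one in 8 of 36. Neural crest-like genes had a lower effect in 12 and a higher one in 4 of 20.

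**Figure D4:**
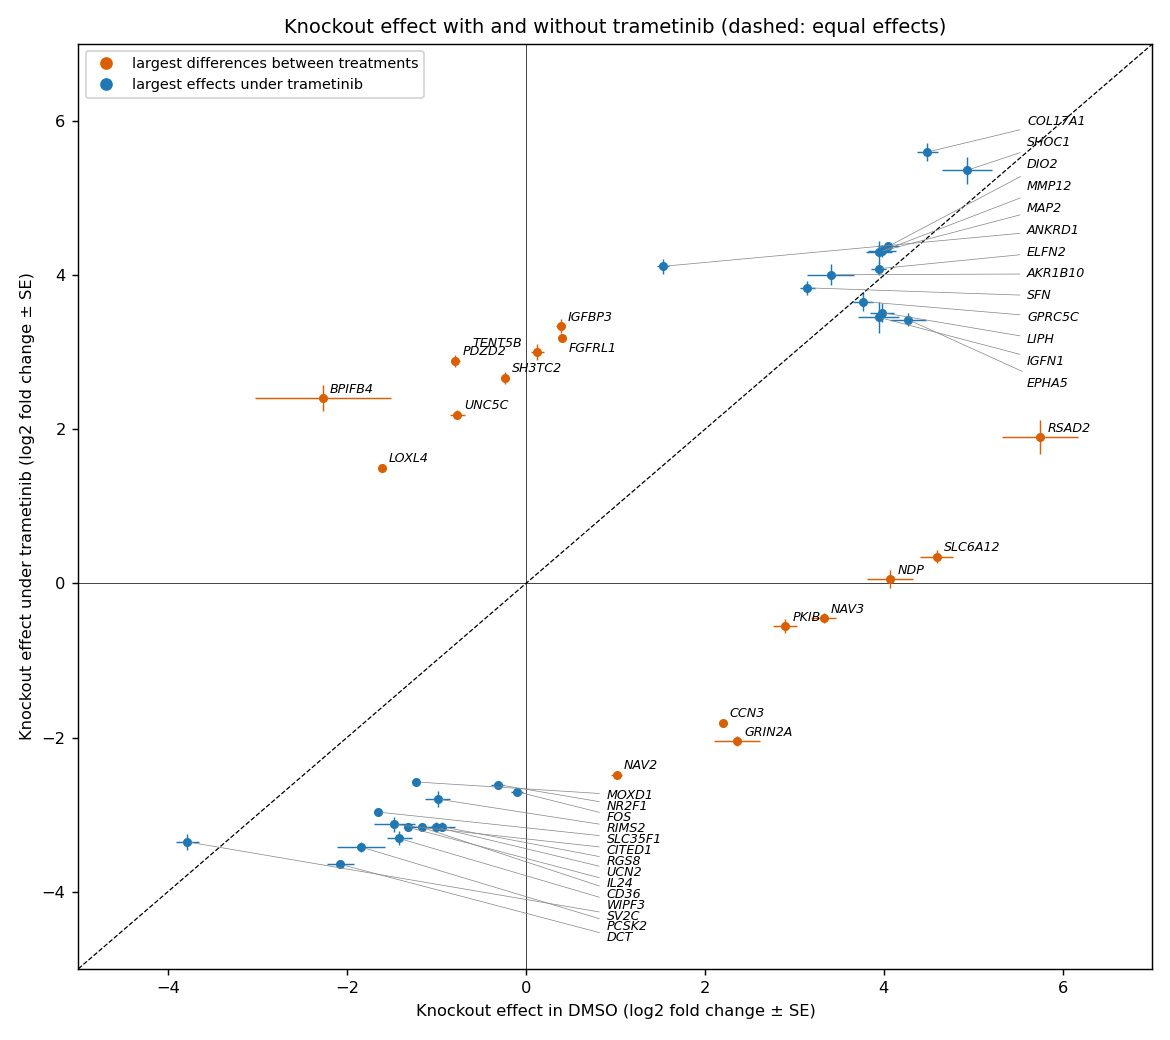
Knockout effect under trametinib (vertical) against that in DMSO (horizontal), both as log2 fold change ± SE over 3 control and 6 knockout libraries, for the genes with the largest effects under trametinib (blue) and the largest differences between the treatments (orange). GOLGA8S, a fall, is left out, and so are 1 of the rises and also MUC16, which had 0 reads in control cells in DMSO. NAV2, CCN3 and GRIN2A lie in the lower right, raised by the knockout in DMSO and lowered under trametinib.

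For some genes the knockout acted in opposite directions. CCN3, a matricellular protein, stood at 7.58, 8.17 and 7.74 CPM in control libraries in DMSO, 37.4, 37.0 and 35.9 with guide 1 and 34.3, 36.4 and 34.9 with guide 2, and under trametinib at 504, 495 and 489.5 CPM in the control libraries, 264, 252 and 246 CPM with guide 1 and 78.8, 78.8 and 80.3 CPM with guide 2. Knockout libraries were thus above control in DMSO and below it under trametinib, with log2 effects of 2.20 ± 0.038 and -1.81 ± 0.025 and a difference of -4.01 ± 0.045 (adjusted p = 3.35e-48). NAV2, a neuron navigator protein, had effects of 1.01 ± 0.059 in DMSO and -2.48 ± 0.041 under trametinib, where it stood at 117, 110.2 and 115 CPM in the control libraries, 27.98, 27.3 and 27.98 CPM with guide 1 and 15.1, 15.5 and 14.5 CPM with guide 2. GRIN2A, a glutamate receptor subunit, went from effects of 2.36 ± 0.25 to -2.05 ± 0.065, with control levels of 0.0694, 0.104 and 0.201 CPM in DMSO and 34.2, 32.2 and 34.2 CPM under trametinib. LOXL4, which crosslinks collagen, changed the other way, from -1.61 ± 0.026 in DMSO to 1.502 ± 0.031 under trametinib, where it stood at 44.9, 44.6 and 48.6 CPM in the control libraries, 117, 124 and 124 CPM with guide 1 and 135, 144 and 139.7 CPM with guide 2. PDZD2, a scaffold protein, had effects of -0.79 ± 0.049 and 2.89 ± 0.077, and the netrin receptor UNC5C of -0.77 ± 0.081 and 2.19 ± 0.059. BPIFB4 carried the largest positive difference (4.68), but in DMSO it had 11 reads in control libraries, 4 with guide 1 and 1 with guide 2.

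For other genes the effect was large in 1 of the 2 treatments. IGFBP3, which binds insulin-like growth factors, had effects of 0.39 ± 0.049 in DMSO and 3.34 ± 0.092 under trametinib. Its levels were 42.6, 38.7 and 40.6 CPM in control libraries in DMSO and, under trametinib, 1.06, 0.964 and 0.733 CPM in the control libraries, 6.97, 8.64 and 8.27 CPM with guide 1 and 11.1, 10.6 and 11.4 CPM with guide 2. FGFRL1, an FGF receptor without a kinase domain, had effects of 0.40 and 3.19, with levels of 153, 168 and 164 CPM in control libraries in DMSO and 5.59, 5.22 and 5.32 CPM in the control libraries, 42.0, 43.3 and 44.5 CPM with guide 1 and 52.5, 57.9 and 55.6 CPM with guide 2 under trametinib. Knockout cells thus stood nearer to the level in DMSO than control cells did for both genes. SH3TC2, a protein of Schwann cells, had effects of -0.24 and 2.67, and TENT5B, a poly(A) polymerase, 0.13 and 3.00. In the other direction, the betaine transporter SLC6A12 had effects of 4.59 ± 0.18 in DMSO and 0.35 ± 0.089 under trametinib, and NDP, the WNT pathway ligand norrin, 4.07 ± 0.25 and 0.05 ± 0.12, the latter not past the test (adjusted p = 0.729). NAV3 and the kinase inhibitor PKIB were raised in DMSO (log2 3.33 and 2.90) and somewhat lower under trametinib (-0.45 and -0.56). RSAD2, an antiviral interferon-response gene, rose in both, by log2 5.74 ± 0.42 in DMSO and 1.90 ± 0.23 under trametinib. In DMSO the 3 control libraries together held 37 reads of SLC6A12, 16 of NDP and 20 of RSAD2. Under trametinib they held 1583, 626 and 467. The effects of these genes in DMSO thus rest on near-empty control groups.

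**Figure D5:**
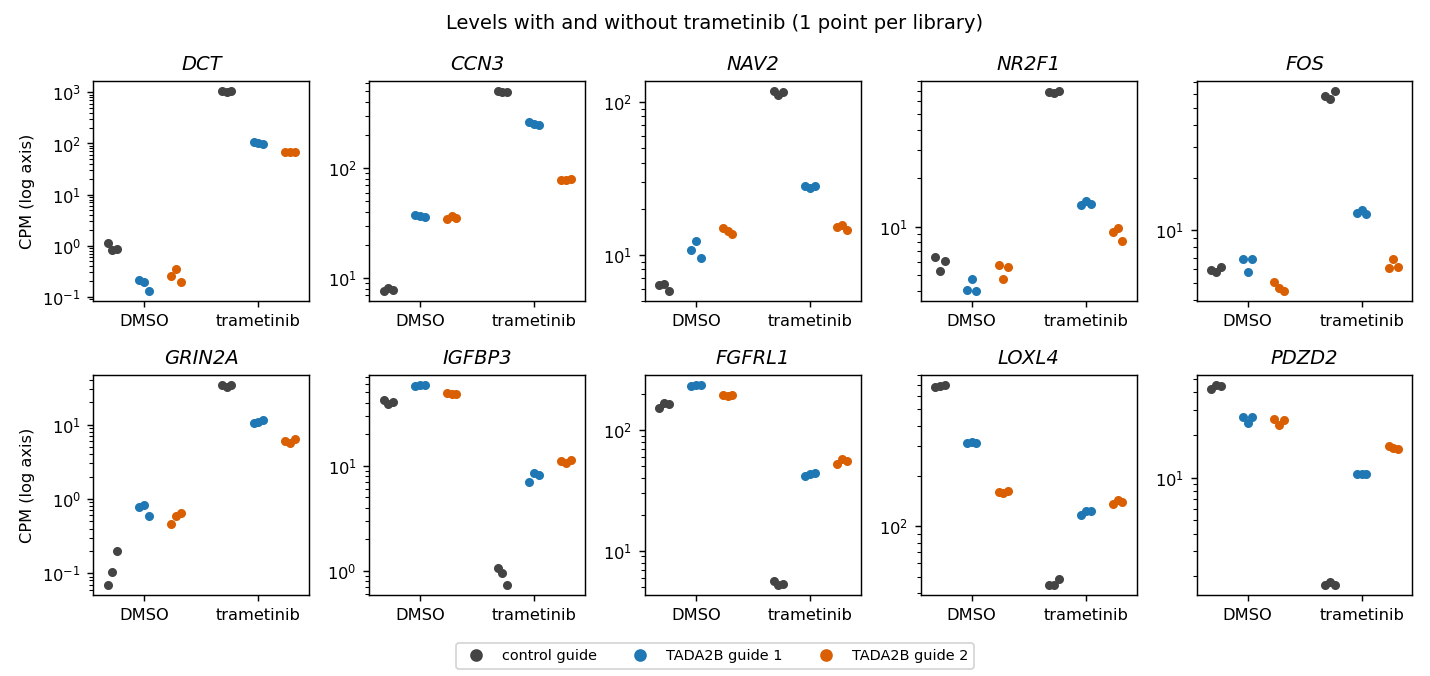
Level in CPM (log axis, with its own range in each panel) of 10 genes in DMSO and under trametinib, with 1 point per library for the control guide, guide 1 and guide 2. DCT stood near 1 CPM in control libraries in DMSO and near 1047 CPM under trametinib, where the knockout libraries stood near 103 and 68.0 CPM.

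Genes with a large effect under trametinib were in part genes that hardly show in DMSO. Those picked for the size of that effect tend to differ from DMSO in its direction by the choice itself. DCT stood at 1.12, 0.830 and 0.861 CPM in control libraries in DMSO, 0.216, 0.198 and 0.128 with guide 1 and 0.251, 0.354 and 0.194 with guide 2, a knockout effect of -2.08 ± 0.15 against -3.64 ± 0.027 under trametinib (difference -1.57 ± 0.18, adjusted p = 1.71e-10). FOS had an effect of -0.10 ± 0.064 in DMSO against -2.70 ± 0.049, and NR2F1 of -0.32 ± 0.073 against -2.61 ± 0.052. For JUN the effects were 0.64 ± 0.045 in DMSO and -2.12 ± 0.029 under trametinib (difference -2.76 ± 0.053, adjusted p = 7.06e-39), and for ATF3 0.58 ± 0.074 and -2.37 ± 0.037, so that both were raised in the absence of the drug and lowered in its presence. ANKRD1 had effects of 1.53 and 4.12 (difference 2.58 ± 0.12). For the lineage factors the differences passed the test but were small: SOX10 had effects of -1.32 ± 0.030 and -1.47 ± 0.030, and MITF of -0.49 ± 0.030 and -0.65 ± 0.028. For MMP12 the difference was 0.33 ± 0.26 (adjusted p = 0.326), for PLAU 0.52 ± 0.61 (adjusted p = 0.539) and for EGFR 0.61 ± 0.077 (adjusted p = 3.82e-09).

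Against vemurafenib, which blocks the same cascade 1 step earlier, far fewer genes differed. The knockout effect was higher under trametinib for 720 genes (2.86%) and lower for 766 (3.04%), and by at least 2-fold for 53 and 44, together 0.385% of the genes tested. List medians under both drugs lay close for the interferon-response genes (0.63 under trametinib and 0.69 under vemurafenib), the neural crest-like genes (-1.03 and -1.11) and the keratinocyte genes (1.43 and 1.29), while that of the MAPK outputs was -0.32 under trametinib (-0.07 with guide 1 and -0.36 with guide 2) and 0.13 under vemurafenib. SH3TC2 had effects of 2.67 ± 0.074 and 1.24 ± 0.051 (difference 1.43 ± 0.094, adjusted p = 4.64e-16). For IGFBP3 the effects were 3.34 and 2.25 (difference 1.09 ± 0.15), and for PDZD2 2.89 and 1.86 (difference 1.03 ± 0.11). CCN3 was lowered more under trametinib (-1.81 against -1.27, difference -0.54 ± 0.036), as was SPRY4 (-0.82 against -0.16, difference -0.66 ± 0.11). ELFN2 rose more under vemurafenib (difference -0.81 ± 0.17), as did CCND1 (0.40 and 0.70). DCT did not differ past the test (difference -0.03 ± 0.039, adjusted p = 0.787).

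The 2 knockout populations were not alike in size of effect. Of the genes tested, 4954 differed between guides under trametinib (19.7%), 2710 higher (10.8%) and 2244 lower (8.91%) with guide 2, with the balance reversed, 2208 higher and 2710 lower, when only the 9 trametinib libraries entered the fit, and also without guide 1 replicate 1, 2054 and 2152. The difference was at least 2-fold for 289 genes (1.15%), of which 56 were higher (0.222%) and 233 lower (0.925%) with guide 2. CCN3 was among the latter, at 254 CPM with guide 1 and 79.3 with guide 2 (log2 -1.68 ± 0.031). IL24 differed by -1.52 ± 0.086, MOXD1 by -1.47 ± 0.035, JUN by -1.13 ± 0.035 and NGFR by -1.01 ± 0.047. SOX10 was also lower with guide 2 (log2 -0.86 ± 0.037), whereas MITF (log2 0.00 ± 0.034) and COL17A1 (log2 0.10 ± 0.073) showed no difference past the test. Against the shared control libraries, NGFR had log2 effects of -1.76 with guide 1 and -2.78 with guide 2, SOX10 -1.04 and -1.90, JUN -1.56 and -2.69, EGFR 2.17 and 2.66, and DCT -3.34 and -3.94. TADA2B transcript itself was lower under trametinib with guide 2 than with guide 1 (log2 -0.25 ± 0.042, adjusted p = 6.9e-06). In DMSO the reads of TADA2B, not scaled for depth, were 6819 in control libraries, 6931 with guide 1 and 6408 with guide 2. Whether its transcript level follows the strength of the knockout was not tested.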

How the data were processed

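RNA-seq was made from polyA RNA of A375 cells in 27 libraries, 9 of them under trametinib. The deposited values are whole-number read counts per gene; per the submitters' processing notes the authors used bcl2fastq, HISAT2, HTSeq and hg38. For the versions, annotation release and strand setting: not given in the sources used here. Each of the 58721 gene rows was found in GENCODE 29, from which types and hg38 coordinates were taken, and 58252 have a current symbol.

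The counts were analysed as deposited with edgeR 4.0.16 in R 4.3.3: the tool's filter on low counts, which left 25199 genes, TMM scaling, 9 group means over all 27 libraries with 18 residual degrees of freedom, and quasi-likelihood tests with Benjamini-Hochberg adjustment over all genes at 0.05. The common biological coefficient of variation was 4.02%. The standard error is the log2 fold change divided by the square root of F. Contrasts were the mean of both guides minus control under trametinib, its difference from the same contrast in DMSO and under vemurafenib, and guide 2 minus guide 1. Depths between 67502300 and 92513726 counts per library under trametinib make counting error small except for genes with few reads. Replicate libraries differed beyond counting noise (chi-square per degree of freedom 3.17 to 8.11), so none was taken as a duplicate. No replicate was left out of the reported values.

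Named genes were the 15 largest rises and 15 largest falls among protein-coding genes past the test with a mean of 1 log2-CPM or more whose knockout libraries all lie on 1 side of the control libraries, the 8 largest differences from the DMSO effect in each direction at the same level, up to 5 called members of each list with the largest change, and 11 genes of known role (TADA2B, DUSP6, SPRY4, CCND1, MITF, SOX10, DCT, NGFR, AXL, EGFR and PLAU). A few genes outside this rule are named, chosen after their values were seen: ITGA6, DST, TP63 and markers of other cell types given by reads only. Some genes the rule picks are not reported here. The members and lists were chosen with earlier results of these data known. Alternatives were other scaling, other filters, DESeq2 1.42.0, a replicate block, fewer groups, each guide alone and each library left out. The analysis was tested on simulated data. Promoter sequences are from RefSeq (GRCh38.p14).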

Additional observations from a re-analysis of the deposited data

Results flagged for a closer look

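The knockout effect under trametinib differed from that in DMSO by edgeR's test of the difference itself in 11066 genes, and from that under vemurafenib in 1486 genes. Some genes were named for a large effect under trametinib, so a difference from DMSO in that direction follows in part from the choice. Among them, a test of the difference (trametinib minus DMSO, log2) singled out the following. Effects were higher under trametinib for ANKRD1 (2.58), COL17A1 (1.12), SFN (0.69) and SV2C (0.43), the last of which fell in both treatments. The pigment genes DCT (-1.57) and CITED1 (-1.66), the neural crest genes NR2F1 (-2.29) and MOXD1 (-1.35), the lipid transporter CD36 (-2.00) and the AP-1 subunit FOS (-2.60) had lower effects. So did the secreted or secretory genes IL24 (-1.84), UCN2 (-2.16), PCSK2 (-1.58) and RIMS2 (-1.81), and RGS8 (-2.22), WIPF3 (-1.89), SLC35F1 (-1.32) and EPHA5 (-0.85), of which EPHA5 rose in both treatments.

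The genes chosen for this difference were BPIFB4 (4.68), PDZD2 (3.68), LOXL4 (3.11), UNC5C (2.96), IGFBP3 (2.95), SH3TC2 (2.90), TENT5B (2.88) and FGFRL1 (2.79) in the positive direction. In the negative direction they were GRIN2A (-4.41), SLC6A12 (-4.24), NDP (-4.01), CCN3 (-4.01), RSAD2 (-3.84), NAV3 (-3.77), NAV2 (-3.50) and PKIB (-3.45). Their size follows from the choice.

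Genes of known role also passed. The receptors differed by 0.61 (EGFR), 0.35 (AXL) and -0.92 (NGFR), the lineage factors by -0.15 (SOX10) and -0.17 (MITF), and the ERK outputs by 0.87 (CCND1), 0.72 (SPRY4) and -0.71 (DUSP6). TADA2B itself differed by -0.29.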

How the results depend on the processing

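Of 268 gene-level results, each recomputed under the alternative settings that bear on its comparison, 4865 of 4884 values kept their direction and call. Most of these genes were picked for large called changes in the main fit, and 27 of 36 settings only left out 1 library. Such stability thus follows in part from the choice. The calls of ENY2, MYC, TAF10, TIE1, UBE2C and USP51 were lost in at least 1 setting, and the effect of NDP under trametinib, which is not past the test, turned to -0.139 with guide 2 alone and ranged from -0.002 (without control_trametinib replicate 1) to 0.085 with 1 library left out. With genes of a mean of at least 1 CPM only, fewer genes were tested, and at least 2-fold calls went from 2122 to 939 higher and 1199 to 506 lower for the knockout effect, to 506 and 619 for its difference from DMSO, to 23 and 14 for its difference from vemurafenib and to 2 and 109 for guide 2 against guide 1. DESeq2's Wald test gave 31 higher and 27 lower at least 2-fold differences from vemurafenib, and 29 genes at least 2-fold higher with guide 2; the cause was not tested.

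With each library left out in turn, the knockout effect gave 6212 to 6812 genes higher and 6711 to 7178 lower, and at least 2-fold 2073 to 2155 and 1168 to 1263. Its difference from DMSO gave 4785 to 5260 and 5449 to 5797, and at least 2-fold 940 to 1005 and 1200 to 1283. Its difference from vemurafenib gave 519 to 800 and 477 to 902, and at least 2-fold 39 to 59 and 29 to 52, with the lowest counts of lower effects, 477 and 29, without control_vemurafenib replicate 2. Guide 2 against guide 1 gave 2054 to 2334 and 1826 to 2152, and at least 2-fold 51 to 59 and 203 to 222; fitted on the 9 trametinib libraries alone it gave 2208 higher and 2710 lower genes, 44.9% of calls higher against 54.7%. The replicate block gave 6775 higher and 7226 lower genes, 2120 and 1189 of them at least 2-fold. Under trametinib the deviations of same-numbered libraries correlated at -0.15 to 0.159, and 3 of 9 pairs exceeded 0.1. The best match had the same number in some of these pairs and another number in the rest. Between trametinib and DMSO of the same population the deviations correlated at 0.022 to 0.217, and the best match mostly had the same number. Correlations this weak do not settle whether the numbers pair the libraries. With the replicate block, the difference from DMSO gave 5210 higher and 5809 lower genes.

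Among list counts, 1607 of 1620 stayed within 1.5 times. Under the filter of 1 CPM the higher members were 5 for fibroblast, 1 for leukocyte and 2 for endothelial markers. With guide 1 alone 4 SAGA core genes were higher and 6 WNT and ROR genes lower, with guide 2 alone 8 p53 targets were higher, without control_trametinib replicate 2 the SAGA core genes higher were 4, and without control_trametinib replicate 3 the oxidative phosphorylation genes lower were 5. Genes with few reads in control libraries (PLAU, TYR, SFRP2, KIT, AREG) carry the least precise fold changes.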
